A study of Mus musculus with 6 samples.

Results

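Gpx1, Prdx2, Ccs, Ftl1 and Selenop are 5 genes of peroxide, superoxide and iron defence, and their probes were followed through a study of antimalarial drugs in mouse kidney. The members were every probe that the platform's annotation assigns to one of these genes, which gave 12 probes: 5 of Ftl1, 2 each of Gpx1, Prdx2 and Ccs, and 1 of Selenop. The array held 23040 spots in 48 printed blocks, of which 15114 carried a probe for 1 named gene, and these named 9107 genes. A probe is called here by its gene and its block, since each of the 12 lay in a different block.

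The treated groups were male Swiss albino mice of 8 to 10 weeks given amodiaquine at 120 mg/kg, Sulfodoxine-Pyrimethamine (SP) at 300 mg/kg and 15 mg/kg, or both together at the same doses. The control group was given the vehicle, DMSO, and kidneys were studied 24 h after the drug, with 4 mice per group per the study's design text. Amodiaquine is a quinoline antimalarial, and SP joins 2 inhibitors of folate metabolism. Each treatment has 2 two-colour array files in which kidney cDNA of treated mice and of vehicle mice was hybridised together. By the labels the treated cDNA carried the dye Cy5 in replicate 1 and Cy3 in replicate 2. The labels do not state whether RNA of several mice was pooled or whether both replicates used the same extracts, so p-values measure only the spread between 2 arrays, which may be technical.

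Superoxide in the cytosol is turned into hydrogen peroxide by superoxide dismutase 1, which receives its copper from the chaperone encoded by Ccs. Hydrogen peroxide is then reduced by glutathione peroxidase 1 (Gpx1), a selenium enzyme that uses glutathione, and by peroxiredoxin 2 (Prdx2), which uses thioredoxin. Ferritin, built of light chains (Ftl1) and heavy chains, stores iron in a form that does not feed radical chemistry. Selenoprotein P (Selenop) carries selenium in plasma, and proximal tubule cells of the kidney take it up through megalin.

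The 6 files came from 4 scans. Between the 2 files of SP, 36.9% of Cy3 and 34.4% of Cy5 foreground values of replicate 2 also stood in replicate 1, and for amodiaquine+SP 41.9% and 28.2%, against 0.0912% and 0.122% for amodiaquine. The 2 SP files are therefore given as 2 readings of 1 scan, and likewise the 2 amodiaquine+SP files, so for both the dye of the treated cDNA is not settled and no test was run. Only amodiaquine had 2 separate arrays. Between 10.9% and 15.1% of spots per file and dye were above background, meaning a signal-to-noise ratio (as the deposited scanner files give it) of at least 2. Gene names follow the order of the platform's blocks rather than the spot number: 138 ribosomal protein probes then had a mean brightness rank of 0.796, against 0.526 by spot number (0 is the dimmest spot and 1 the brightest). Proximal tubule markers, for a tissue labelled kidney, had a mean rank of 0.854 over 10 probes of 8 genes, with 3 probes above background in 6 or more of 12 readings. Other cell type lists were dimmer over all 6 files: thick limb 0.605 (2 probes), collecting duct 0.302 (3), podocyte 0.475 (1), endothelium 0.461 (8) and macrophage 0.380 (4). The 2 thick limb probes ranked 0.230 and 0.980, and the brightest macrophage probe 0.990. With 1 file per scan the thick limb mean was 0.860, against 0.864 for proximal tubule, so these lists did not differ there. The other lists then lay between 0.296 and 0.600.

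The measuring grid did not sit on the same spots in every block. A displacement of up to 3 rows or columns was searched for each block and dye by matching brightness patterns across scans. A block was in register in a file where neither dye was displaced and the 2 dyes correlated by rank at 0.5 or more. This held for 23 of 48 blocks in amodiaquine replicate 1 and 32 in replicate 2, 36 and 4 in the SP files, and 30 and 2 in the amodiaquine+SP files. For the 12 probes, 32 of 72 probe and file pairs were in register, and 56 of their 64 dye readings (87.5%) were above background. In the other 40 pairs 21 of 80 dye readings (26.3%) were above background. When each dye was read at the displacement found for its block, a reading called realigned here, 58 of those 80 (72.5%) were above background. Realigned values are an alternative chosen after seeing the data, and the displacement was fitted to brightness, so they are given beside the values as deposited and not in their place.

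**Figure D1:**
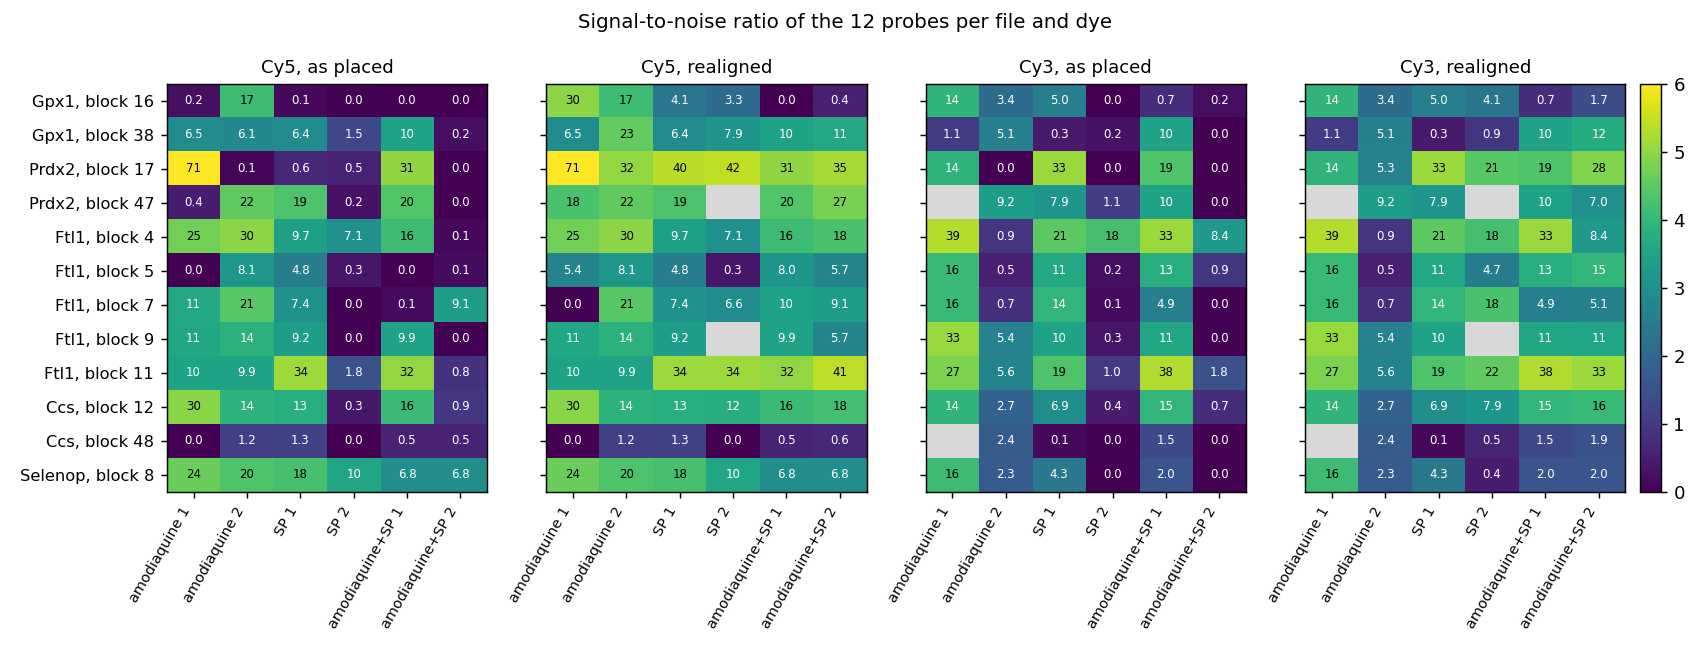
Signal-to-noise ratio of the 12 probes (rows) in the 6 files (columns), for Cy5 and Cy3, with spots where the files place them and with each dye realigned block by block. Colour is log2 of the ratio plus 1, the numbers are the ratios, and grey marks a background of 0 or a spot moved outside its block. Of 144 readings, 114 realigned and 77 as placed were above background, and the block 48 probe of Ccs reached 2 in 1 reading only.

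The 12 probes were among the bright spots of the array. Their brightness ranks, from the mean of both dyes over all 6 files, ran from 0.643 to 0.996 with a median of 0.963, and 10 of 12 were above 0.9. The Ftl1 probes of blocks 4 and 11 ranked highest at 0.996 and 0.995, and the block 48 probe of Ccs ranked lowest at 0.643. Realigned, 11 of 12 ranked above 0.9 and the median was 0.976. With names taken by spot number the median was 0.578, close to the 0.5 of the whole array. Wider lists of such genes, described below and including the members, were dimmer than the members alone, whose mean rank was 0.928. The members were chosen with earlier results of these data known, so this contrast is a description and no independent support. The antioxidant list had a mean rank of 0.592 over 50 probes, 19 of them above background in no reading. The iron and heme list had 0.631 over 33 probes, with 12 in none. Brightness depends on each probe's own chemistry and length, so these ranks do not order the genes by expression.

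**Figure D2:**
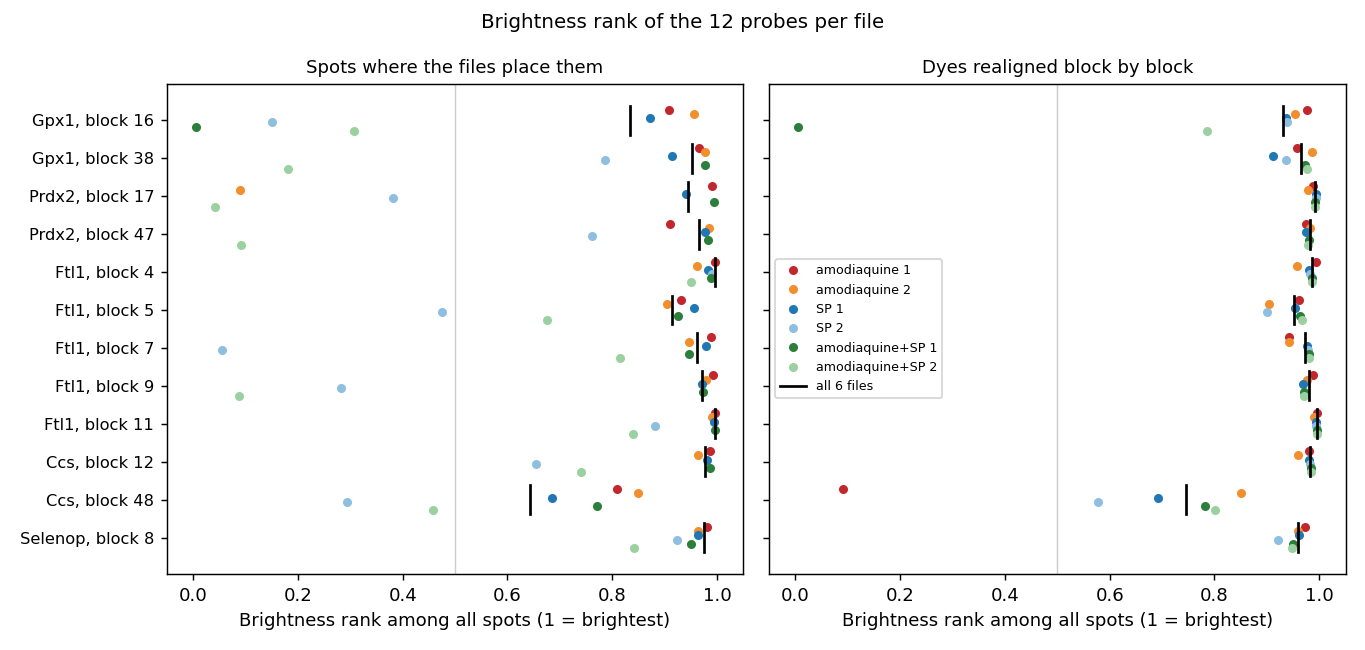
Brightness rank of each probe among all spots, per file (points) and over all 6 files (black line), with spots as placed on the left and realigned on the right. As placed, the low points belong mostly to replicate 2 of SP and of amodiaquine+SP, the 2 readings with 4 and 2 blocks in register. Realigned, the black lines of 11 probes lie above 0.9.

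Prdx2 shows how far the reading of a spot depended on the grid. The block 17 probe had background-corrected intensities of 32026 in Cy5 and 8163 in Cy3 in amodiaquine replicate 1, with signal-to-noise ratios of 70.8 and 13.9. In amodiaquine replicate 2 the same spot was listed at 58.9 in Cy5 and 0 in Cy3, and 1 row away the ratios were 31.6 and 5.29. In SP replicate 1 only the Cy5 grid of this block was displaced, and the log2 ratio of Cy5 over Cy3 was -5.42 as placed and 0.12 realigned. Across the 4 scans (amodiaquine 1, amodiaquine 2, SP and amodiaquine+SP) the log2 ratios of this probe were -0.18, 0.26, -5.42 and -0.07 as placed. Realigned they were -0.18, -0.0038, 0.12 and -0.07, a mean of -0.03 ± 0.12 (SD, n = 4 scans). The range over the scans was 5.68 as placed and 0.30 realigned.

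The block 47 probe of Prdx2 gave log2 Cy5 over Cy3 of -1.07, 0.44, 0.34 and 0.42 in the 4 scans as placed. Its block was in register in the last 3 of these and displaced by 1 column in Cy5 in amodiaquine replicate 1, where the realigned value was 0.55. The realigned mean was 0.44 ± 0.09 (SD, n = 4 scans), and all 4 scans were above 0. The Cy3 background of this spot in amodiaquine replicate 1 was recorded as 0, so its signal-to-noise ratio there is undefined and the probe did not enter the test. Neither Prdx2 probe passed the filter as placed. By the labelled dyes, the block 47 ratios realigned were 0.55 and -0.44 (treated over vehicle) on the 2 amodiaquine arrays, of opposite sign.

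Neither probe of Gpx1 passed the test for amodiaquine, and each rested on a reading that was dim or displaced. The block 38 probe had intensities of 12930 in treated and 2265 in vehicle kidney on replicate 1, and 11216 in treated and 7190 in vehicle kidney on replicate 2. After normalization within its block, its log2 ratios of treated over vehicle were 1.28 and 1.505, the only member above 1.5-fold higher on both arrays. The vehicle signal on replicate 1 had a signal-to-noise ratio of 1.06, so it was not well above background there. On replicate 2 the Cy5 grid of block 38 was displaced by 1 column, and the realigned value was 0.80. As placed, the median log2 ratio of all tested probes of that block on replicate 2 was 0.64, beside 1.505 for this probe.

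The block 16 probe of Gpx1 had log2 ratios of treated over vehicle of -3.94 and 0.46 on the 2 amodiaquine arrays. The treated dye of replicate 1 was displaced by 1 row, with signal-to-noise ratios of 0.179 as placed and 29.9 realigned, and the realigned log2 ratio was 0.0043. The fitted log2 ratios were 1.39 ± 0.54 for block 38 and -1.74 ± 1.29 for block 16 (SE) as placed. Realigned they were 1.04 and 0.23, so with loess within each block the opposite signs as placed rest on that displaced reading. With loess over the whole array, as placed, treated over vehicle was 1.34 and 1.72 for block 38. Block 16 was then at -3.35 and -1.81, below 0 also on replicate 2, where its block was in register. In SP replicate 1 block 38 had a log2 Cy5 over Cy3 of 2.92 with a Cy3 signal-to-noise ratio of 0.350, and in amodiaquine+SP replicate 1 it was -0.04 with both dyes above background. Block 16 was at -0.45 in SP replicate 1 realigned.

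Ccs was measured by 1 probe of use. The block 12 probe was in register in all 4 scans with both dyes above background, and its log2 Cy5 over Cy3 was 0.42, 0.22, 0.20 and 0.21, a mean of 0.26 ± 0.11 (SD, n = 4 scans). Its values covered 0.22, the smallest range as placed among the 12 probes. By the labelled dyes the amodiaquine arrays gave 0.42 and -0.22 for treated over vehicle, so Cy5 was the brighter dye relative to the block on both, whichever RNA it carried by the labels. The block 48 probe of Ccs was above background in 1 of 12 readings, the Cy3 of amodiaquine replicate 2, and not well above background in the others.

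Ftl1 leaned towards Cy3 on most readings. The block 9 probe, in register in all 4 scans, had log2 Cy5 over Cy3 of -1.498, -0.73, -0.85 and -0.75, and the block 11 probe had -0.91, -0.58, -0.14 and -0.27. Both were below 0 in every scan, with means of -0.96 ± 0.36 for block 9 and -0.48 ± 0.35 for block 11 (SD, n = 4 scans). Because the labelled treated dye differs between the amodiaquine arrays, treated over vehicle was -1.498 and 0.73 for block 9, and -0.91 and 0.58 for block 11. With this normalization, loess within each block, the sign of these probes followed the dye and not the labelled RNA. With loess over the whole array, treated over vehicle was -1.38 and -1.22 for block 9, and -1.43 and -0.97 for block 11, below 0 on both arrays.

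In the other 3 Ftl1 probes the Cy3 signal of amodiaquine replicate 2 was too dim to compare the arrays. The block 4 probe had intensities of 29322 in treated and 20362 in vehicle kidney on replicate 1, but 756 in treated and 34704 in vehicle kidney on replicate 2. After normalization within its block, its log2 ratios of treated over vehicle were -1.59 and -1.26, so on replicate 1 normalization reversed the direction of the intensities. This probe was the only member 1.5-fold lower on both arrays. On replicate 2 its treated signal had a signal-to-noise ratio of 0.898, and those of blocks 5 and 7 had 0.452 and 0.745, so none of the 3 was well above background in Cy3 there. Treated over vehicle was -4.86 and 0.20 for block 5, and -2.13 and -0.31 for block 7. Over the readings where both dyes were above background, realigned, all Ftl1 ratios were below 0: 4 of 4 and 2 of 2 on the amodiaquine arrays, 5 of 5 and 3 of 3 in the SP files, and 5 of 5 in each amodiaquine+SP file. The 2 files of SP are 1 scan, as are those of amodiaquine+SP, so they do not add separate readings. The share of all probes below 0 was not counted, so these counts are not read as particular to Ftl1. Realigned, probes above background in both dyes were more often past 1.5-fold towards Cy3 than towards Cy5. The shares were 15.8% against 5.59% in SP replicate 1, and 11.7% against 7.29% in amodiaquine+SP replicate 1. As placed, the 540 probes above background in both dyes on both amodiaquine arrays had a median fitted log2 Cy5 over Cy3 of -0.15.

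The 5 Ftl1 probes differed in size within a single scan. In SP replicate 1, where all 5 blocks were in register, log2 Cy5 over Cy3 ran from -1.22 to -0.14 with a median of -0.85. In amodiaquine+SP replicate 1 it ran from -4.11 to -0.27 as placed and from -2.13 to -0.27 realigned, with Cy5 displaced by 1 row in blocks 5 and 7. In amodiaquine replicate 1 the block 5 probe was at -4.86 as placed, with a Cy5 signal-to-noise ratio of 0.015, and at -2.52 realigned. Realignment moved the block 7 probe the other way there: its Cy5 signal-to-noise ratio was 11.3 as placed and 0 realigned, and its log2 ratio -2.13 and -4.71, so the displacement found for that block did not hold at this spot. A probe of the pseudogene Ftl1-ps2 was also bright, at rank 0.953, with log2 Cy5 over Cy3 of -0.13, -0.04, -0.59 and 0.07 in the 4 scans, and how much the Ftl1 probes bind such near copies was not measured.

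Selenop leaned towards Cy5. Its probe in block 8 had log2 Cy5 over Cy3 of 0.79, 0.66, 1.39 and 0.66 in the 4 scans, a mean of 0.87 ± 0.35 (SD, n = 4 scans), with its block in register in each and the Cy3 signal of amodiaquine+SP just under the limit, at a signal-to-noise ratio of 1.98. On the amodiaquine arrays the intensities were 16948 in treated and 4545 in vehicle kidney on replicate 1, and 1590 in treated and 23263 in vehicle kidney on replicate 2. After normalization within its block, treated over vehicle was 0.79 and -0.66. In the second readings of SP and amodiaquine+SP the Cy3 grid of block 8 was displaced by 1 row, the Cy3 intensity was listed at 0, and the ratio reached 3.79 and 5.79. Realigned, the second SP reading was 3.74, with Cy3 at a signal-to-noise ratio of 0.380, and the second amodiaquine+SP reading was 1.27, with Cy3 at a signal-to-noise ratio of 2.01.

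**Figure D3:**
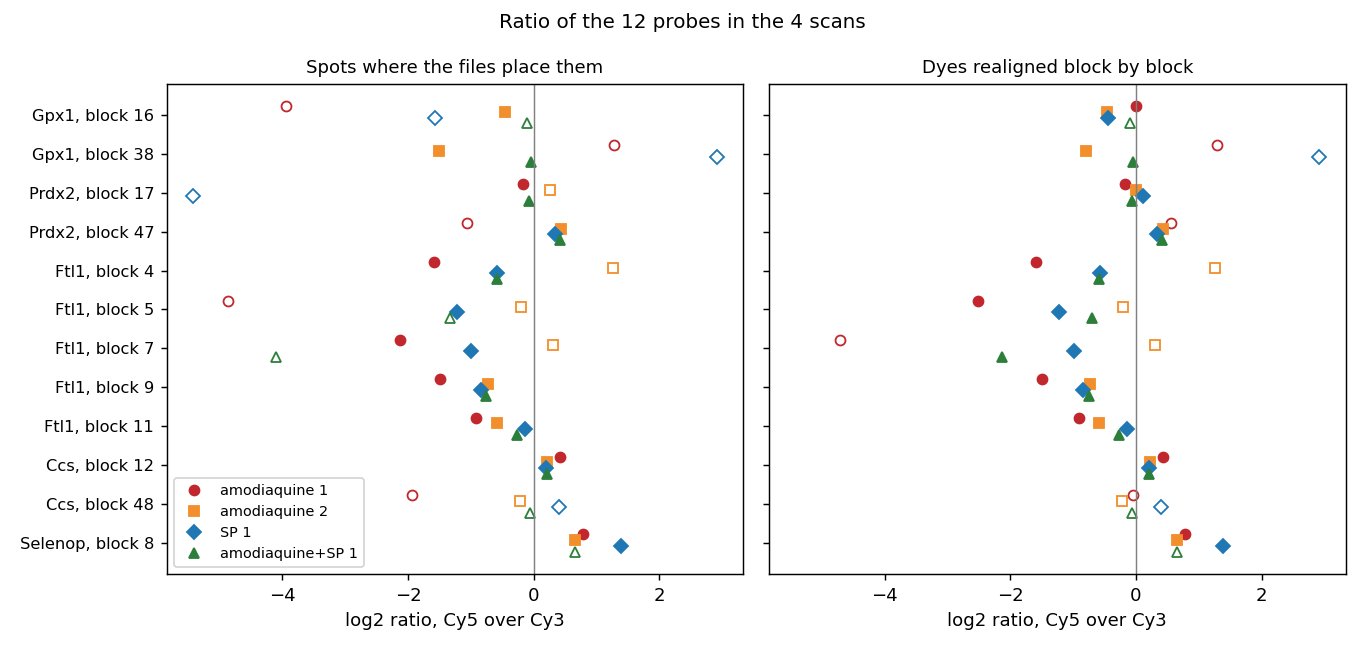
Log2 ratio of Cy5 over Cy3 of each probe in the 4 scans, as placed on the left and realigned on the right. Filled points have both dyes at a signal-to-noise ratio of at least 2, and open points do not. The filled points of Ftl1 lie below 0, those of Selenop and of Ccs block 12 above 0, and the point of Prdx2 block 17 at -5.42 on the left is at 0.12 on the right.

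For amodiaquine against vehicle, no probe was called by limma's test on the 2 arrays. Of 3020 probes that passed the filter 0 reached a Benjamini-Hochberg adjusted p under 0.05 (0%), with 81 at an unadjusted p under 0.05 and a smallest adjusted p of 0.630. The filter, at least 1 dye above background on both arrays, kept 9 of the 12 probes from 4 of the 5 genes, and left out both Prdx2 probes and Ccs block 48. Of the 9, 3 had fitted log2 ratios above 0 and 6 below 0, with a median of -0.38, against 0.03 over all probes tested. The 6 were the 5 probes of Ftl1 and Gpx1 block 16, which was at 0.23 realigned. The median therefore rests mainly on 1 gene and does not describe the members as a set. In this fit none had an unadjusted p under 0.05, and each had an adjusted p of 0.99987. The 2 smallest p-values belonged to Ftl1 block 4, at -1.42 ± 0.55 (SE), and Gpx1 block 38, at 1.39 ± 0.54. With 1 residual degree of freedom the other fitted values were Ftl1 block 5 at -2.33 ± 1.46, block 7 at -1.22 ± 0.73, block 9 at -0.38 ± 0.81 and block 11 at -0.16 ± 0.67. Those of Ccs block 12 were 0.10 ± 0.57 and of Selenop 0.06 ± 0.67.

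By size alone, 1 of the 9 probes was 1.5-fold higher in treated kidney on both arrays (Gpx1 block 38), against 4.04% of all probes tested, and 1 was 1.5-fold lower (Ftl1 block 4), against 3.77%. Without turning the sign, 1 of 9 was 1.5-fold towards Cy5 on both arrays (Selenop), against 9.77% of probes tested, and 1 towards Cy3 (Ftl1 block 9), against 10.6%. Realigned, 11 of the 12 probes passed the filter, and the same 4 probes were past 1.5-fold, 1 of 11 each, against 2.17% higher and 2.17% lower for treated over vehicle, and 9.88% towards Cy5 and 13.3% towards Cy3. The fit of Cy5 over Cy3 called 0 of 3020 probes (0%), with 280 at an unadjusted p under 0.05. Its values were 0.72 ± 0.26 for Selenop, -1.11 ± 0.35 for Ftl1 block 9, -0.75 ± 0.28 for Ftl1 block 11 and 0.32 ± 0.26 for Ccs block 12 (SE). Among the 1375 probes of blocks in register on both arrays this fit called 209 (15.2%), 77 towards Cy5 and 132 towards Cy3, and Ftl1 block 9 was among them with an adjusted p of 0.0499 by limma. In the same blocks treated over vehicle called 0 of 1375 (0%), with 8 at an unadjusted p under 0.05.

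With loess within each block, the 2 amodiaquine arrays repeated each other by dye and not by labelled RNA. Over the 540 probes above background in both dyes on both arrays, log2 Cy5 over Cy3 correlated at r = 0.54, and treated over vehicle at r = -0.54. These correlations are across probes of 2 arrays, which share dye chemistry and print, and carry no p. Realigned, the correlation of Cy5 over Cy3 was 0.69 over 734 probes. Over the same 540 probes the correlation of Cy5 over Cy3 was 0.14 with loess over the whole array, 0.23 with only array medians subtracted, and 0.16 in the authors' deposited table. Loess over the whole array called 17 of 3020 probes turned and 0 unturned by limma, with 198 and 190 at an unadjusted p under 0.05. Limma on the ratios of the authors' deposited table called 0 in both fits, with 140 of 2380 at an unadjusted p under 0.05 turned and 69 unturned. Members with the same sign of Cy5 over Cy3 on both arrays were 6 of 9, against 64.9% of all probes tested. A dye bias and a replicate 2 that was not swapped cannot be told apart here, so the direction of treated over vehicle is not settled, and both signs are given.

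**Figure D4:**
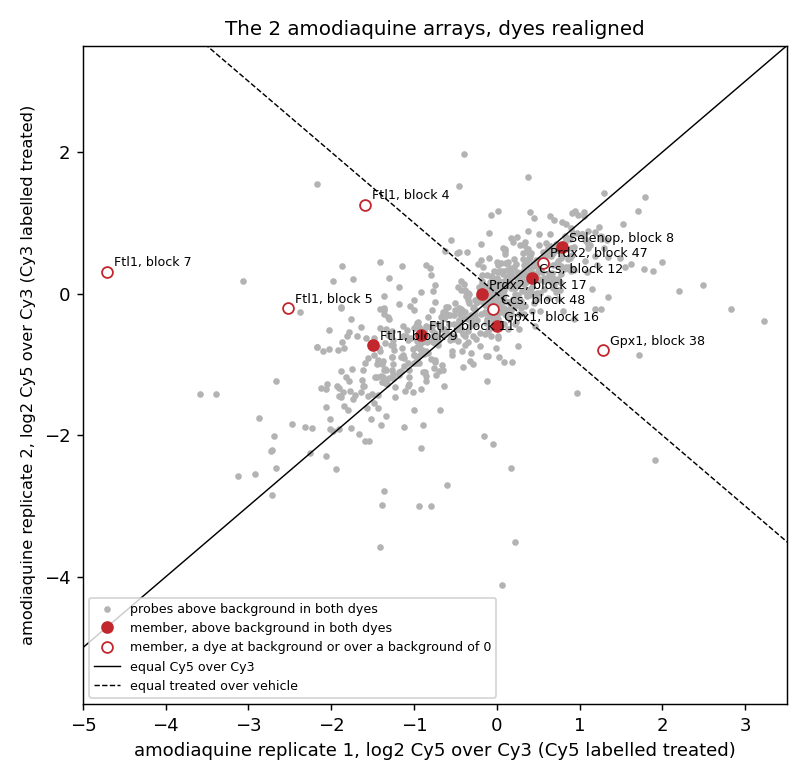
Log2 Cy5 over Cy3 on amodiaquine replicate 1 (x axis) and replicate 2 (y axis), realigned, for probes above background in both dyes (grey) and the 12 members (red). Points near the solid line have equal Cy5 over Cy3 on both arrays, and points near the dashed line equal treated over vehicle. Ftl1 blocks 9 and 11, Selenop and Ccs block 12 lie near the solid line, while Ftl1 block 4 and Gpx1 block 38, each with a dye not well above background, lie near the dashed line.

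The direction of Ftl1 on amodiaquine replicate 2 differed between normalizations. In the authors' deposited table, all 5 Ftl1 probes were below 0 for treated over vehicle on both amodiaquine arrays, and loess over the whole array, run as an alternative, gave the same signs. For block 9 the authors' deposited table gave -1.020 and -1.10, and for block 11 it gave -1.04 and -0.91. By the authors' deposited table, 148 of 242 probes with values in the 5 Ftl1 blocks (61.2%) were below 0 on both arrays, against 24.4% over all blocks. The median of those 5 blocks in that deposited table was -2.85 on replicate 2, so the block 9 and 11 probes of Ftl1 lay above the median of their surroundings there. On replicate 1 they lay below it, since the medians of blocks 9 and 11 in the deposited table were 0.0020 and -0.19. With loess within each block, used for the values above, the same median was -0.14 and the ratios of blocks 9 and 11 on replicate 2 were 0.73 and 0.58.

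For SP, 435 of 1886 probes above background in both dyes in replicate 1 were past 1.5-fold between the dyes (23.1%), with 5.94% towards Cy5 and 17.1% towards Cy3. Of the 8 member probes measured this way 4 were past 1.5-fold: Selenop towards Cy5, and Ftl1 blocks 5, 7 and 9 towards Cy3. The other 4 were Ftl1 blocks 4 and 11, Prdx2 block 47 and Ccs block 12, between -0.58 and 0.34. Realigned, the same 4 of 10 were past 1.5-fold, against 21.3% of probes (5.59% towards Cy5 and 15.8% towards Cy3). By the labelled dyes the 2 readings turn against each other: Ftl1 block 4, in register in both, had log2 Cy5 over Cy3 of -0.58 and -0.57, which the labels turn into -0.58 and 0.57 for treated over vehicle.

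For amodiaquine+SP, 375 of 1872 probes were past 1.5-fold in replicate 1 (20%), with 8.6% towards Cy5 and 11.4% towards Cy3. Of 7 member probes measured, 2 were past 1.5-fold, Ftl1 blocks 4 and 9, both towards Cy3. Realigned, 4 of 9 were, with Ftl1 blocks 5 and 7 added, against 19% of 2195 probes (7.29% towards Cy5 and 11.7% towards Cy3). The Cy5 intensity of Selenop was 8583 in both amodiaquine+SP files, and the Cy3 intensity of Ftl1 block 4 was 16490 and 15584.

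The member ratios can be set beside the spread between scans. Over 336 probes above background in both dyes in all 4 scans the median SD of log2 Cy5 over Cy3 was 0.31, and 54.8% had the same sign in all 4. The 3 members among them had SDs of 0.36 (Ftl1 block 9), 0.35 (Ftl1 block 11) and 0.11 (Ccs block 12), and each kept its sign. Realigned, 504 probes had a median SD of 0.31, and 59.5% had the same sign in all 4 scans. Of the 4 members among those 504, 3 kept their sign and Prdx2 block 17 did not. The 4 scans of Ftl1 block 9 covered a range of 0.77, with the 2 amodiaquine arrays at its ends, so the SP and amodiaquine+SP scans lay between them. Those of Ftl1 block 11 also covered 0.77, and its SP and amodiaquine+SP values were nearer to 0 than either amodiaquine array, a difference with no replicate scan behind it.

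The wider antioxidant list held 54 genes, of which 35 were on the array and 12 passed the filter. By limma 0 of the 12 were called for amodiaquine over vehicle, 9 were above 0 and 3 below 0 without passing the test, and their median log2 ratio was 0.06, against 0.03 over all probes. The smallest p after Gpx1 belonged to Gclm, a subunit of the enzyme that makes the first glutathione precursor, at 0.46 ± 0.60 (SE). The block of this Gclm probe was not in register on both arrays, and its realigned value was 0.21. Sephs2, a selenophosphate synthetase, was at 0.34 ± 0.57, and Selenof, a selenoprotein of the endoplasmic reticulum, was at -0.27 ± 0.60. The iron and heme list held 30 genes, 19 on the array and 6 tested, with 0 called, 4 above and 2 below 0. After Ftl1 its smallest p-values belonged to the transferrin receptor Tfrc at -1.26 ± 0.91, the heme-forming ferrochelatase Fech at 0.13 ± 0.59 and the iron-sensing aconitase Aco1 at 0.06 ± 0.55. None of these probes lay in a block in register on both arrays. Tfrc was at -2.63 and 0.11 for treated over vehicle on the 2 arrays, and its fitted value was -1.74 realigned. By limma the unturned fit called 0 genes of either list.

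Some named probes had a pattern over the 4 scans like that of a member, by the root mean square difference of log2 Cy5 over Cy3 among 197 or 198 probes measured in both dyes on all 4. Nearest to Ccs block 12 were Uqcr11, at 0.05, and Agtrap, at 0.07, where the median probe was at 0.50. Nearest to Selenop were Trmt5, at 0.40, and Nipbl, at 0.44, with the median at 1.020. The patterns of the brightest tested probes of Ftl1 (block 4, nearest to Mfsd11 and Rpl17) and Gpx1 (block 38, nearest to Bag3 and Plp2) include readings not well above background, so no distances are given for them.

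Gpx1 and Prdx2 are also abundant in red blood cells. Of 15 erythroid markers 3 were among the named probes: Alas2 was above background in 2 of 12 readings, Car1 in 1 and Slc4a1 in 0, and their mean brightness rank was 0.389. No globin gene was among the 3, and Slc4a1 also stood on the collecting duct list. A share of the Gpx1 and Prdx2 signal from red blood cells was not tested. In whole kidney, fewer cells of a type and less RNA per cell cannot be told apart.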

How the data were processed

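Kidney cDNA of treated and vehicle mice was hybridised to 2-colour arrays, 25 ug of total RNA per labelling per the labels. Scans were made with ImageQuant 5.0 and spots measured with ArrayVision 8.0, per the study's design text. The deposited scanner files give foreground and background intensity per spot and dye, and a signal-to-noise ratio, with no normalization. The authors' deposited log2 ratios were LOWESS normalized in Avadis 4, per the same text. Set against the scanner values, their slopes on Cy5 over Cy3 were 0.959 to 0.994 in replicate 1 and -0.993 to -0.970 in replicate 2, so the authors turned them by the dye labels. Array medians of these values lay between -0.0684 and 0.115, with the centring unstated.

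Platform block p, counted from 0 in 480 rows, was placed at scanner block 12*(p mod 4)+floor(p/4), also counted from 0; blocks in the text count from 1. Intensities were background-corrected by normexp (offset 50), then normalized by loess within each block, in limma 3.58.1 under R 4.3.3. The limma fit used the 2 amodiaquine arrays alone, with the sign turned by the labelled dyes and again unturned. Probes needed a signal-to-noise ratio of at least 2 in 1 dye or more on both arrays, not counting ratios over a background of 0, which Cy3 of amodiaquine replicate 1 has at 7079 spots. The fit was tested on simulated data. Brightness rank, displacement and counts were computed in Python 3.11.15. For the displacement, the frame of each block was the most common shift over 8 channels of the 4 scans, which moved it in 15 blocks, among them 16 and 17.

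The members and lists were chosen with earlier results of these data known. Every member probe is described. Of the lists, the genes called are named, or, where none is, the 4 with the smallest p, each by its brightest tested probe, and likewise the 2 nearest probes per member. Of 15114 named probes, 14956 matched the RefSeq gene table (GRCm38.p6, used for symbols only). No coordinates or probe sequences are given, since the sources used here hold none for this platform. The number of arrays limits the precision.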

Additional observations from a re-analysis of the deposited data

How the results depend on the processing

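The count for amodiaquine against vehicle, 0 of 3020, was 17 with loess over the whole array (2 higher and 15 lower) and 3 with only array medians subtracted, and 0 under the other alternatives that were tested. The unturned count of 0 was 63 with medians only and 209 with only blocks in register. Loess over the whole array moved the median of all probes to -0.23 turned, against 0.03, and to 0.47 unturned, against 0.08. No member was called turned under any alternative, but some had an unadjusted limma p under 0.05. With whole-array loess these were Ftl1 blocks 4, 5 and 7 (0.028, 0.0039 and 0.034) and Gpx1 block 16 (0.028), against 198 of 3020 probes. With the authors' ratios they were Ftl1 block 5 (0.0057) and Gpx1 block 16 (0.043), against 140 of 2380. Without the filter on dim probes they were Ftl1 block 4 (0.0058) and Gpx1 block 38 (0.0046), against 404 of 23040. With all 6 files and a dye term it was Ftl1 block 5 (0.040), against 123 of 3010. That fit counted 2 readings of 1 scan as separate arrays, so its p-values do not measure a spread between arrays. The SP count of 435 was 135 at 2-fold. The amodiaquine+SP count of 375 was 567 with background subtracted, 589 with the authors' deposited ratios and 152 at 2-fold. Members past 1.5-fold in SP were 0 in the file of replicate 2, where 1 was measured, against 4. In amodiaquine+SP they were 0 with background subtracted, 0 in the file of replicate 2, 1 with the authors' deposited ratios and 4 realigned, against 2. Median brightness rank was 0.578 with names by spot number.

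Treated over vehicle changed sign between the arrays taken singly, with values of -3.94 to 0.46 for Gpx1 block 16, -4.86 to 0.20, -1.498 to 0.73 and -0.91 to 0.58 for Ftl1 blocks 5, 9 and 11, -0.22 to 0.42 for Ccs and -0.66 to 0.79 for Selenop. Gpx1 block 16 was 0.23 realigned, Gpx1 block 38 -0.11 unturned, and Ftl1 block 5 0.0874 in the second SP reading. As placed, the second reading differed in sign from the first at 6 of 12 probes in SP and 4 of 12 in amodiaquine+SP, none of them in register in replicate 2, among them Ftl1 block 7 in amodiaquine+SP (-4.11 in replicate 1 and 6.79 in replicate 2) and Prdx2 block 47 (0.34 and -0.84 in SP, 0.42 and -0.78 in amodiaquine+SP). With whole-array loess, medians only and the authors' deposited ratios, Ccs was -1.36, -0.72 and -1.10, and Selenop -1.08, -0.47 and -0.88. The causes were not tested. Treated and vehicle RNA were paired within each amodiaquine array, and the limma fit used those within-array ratios. The other treatments have 1 scan each, so no such fit was made for them alone. Their files entered only the alternative with all 6 files and a dye term.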
